A study of Mus musculus with 3 samples.

Results

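The genes described here are 78 protein-coding genes that stood lower on day 4 of embryoid body culture than on day 3. They did so in EBs that received C2 ceramide and in EBs that received the solvent alone, with day 4 levels within 2-fold. They are 78 of the 11681 protein-coding genes that reached 100 counts in some library, which are called the genes in use, and the gene table holds 21936 protein-coding genes and 55487 genes in all. They were chosen by their TPM (a transcript level corrected for transcript length and library size). In each day 4 library the TPM had to be below 0.5 of that in the DMSO day 3 library, and C2 ceramide over DMSO within day 4 had to lie from 0.5 to 2. Since these 3 ratios selected the genes, they are given below as a description, without a test.

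The EBs were hanging-drop aggregates of wild-type E14K mouse ES cells, a line of the 129P2/OlaHsd strain, grown without LIF, the cytokine that keeps ES cells undifferentiated. C2 ceramide is a short-chain ceramide that crosses the cell membrane. The 3 libraries came from EBs on day 4 that had been given 30 μM C2 ceramide at the start of day 3, from EBs on day 4 given DMSO (labelled as control), and from DMSO EBs on day 3. Each condition had 1 library of a single cell line, so conditions were not tested against each other and p-values are absent, and a difference between conditions cannot be told apart from a difference between cultures. The bracketed range after a ratio is an exact conditional Clopper-Pearson 95% interval, computed from the gene counts and moved to centre on the TPM ratio. It need not hold the ratio of the counts themselves, counts PCR copies of a molecule separately, and covers counting error only, not the error of placing reads on transcripts.

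Between these days EBs leave a state like the epiblast, the pluripotent layer of the early embryo, and begin to form the primitive streak, from which mesoderm and endoderm arise. During this step genes of the earlier state fall and genes of the new lineages rise. Lists of 27 naive (early), 18 core and 34 postimplantation epiblast genes of pluripotency in use held none of the 78 genes. Of all genes in use, 0.668% were among the 78. Ceramide is the central lipid of sphingolipid metabolism, and enzymes convert it to sphingomyelin or break it down to sphingosine.

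The libraries held 33619197 to 35290094 counts, 13421 to 13683 genes at 1 TPM or more, and 0.651% to 0.768% of counts from the mitochondrial genome. The pluripotency gene Pou5f1 stood at 911 TPM in C2 ceramide day 4 EBs and 628 TPM in DMSO day 4 EBs, against 949 TPM in DMSO day 3 EBs. Other epiblast genes varied. Sox2 stood at 120 TPM with C2 ceramide and 51.2 TPM with DMSO, against 102 TPM on day 3. Utf1 stood at 872 TPM with C2 ceramide and 362 TPM with DMSO, against 1266 TPM on day 3. Dnmt3b stood at 365 TPM with C2 ceramide and 383 TPM with DMSO, against 736 TPM on day 3. Fgf5 stood at 86.6 TPM with C2 ceramide and 253 TPM with DMSO, against 176 TPM on day 3. Otx2 stood at 100 TPM with C2 ceramide and 145 TPM with DMSO, against 160 TPM on day 3. The streak gene T stood at 9.47 TPM with C2 ceramide and 110 TPM with DMSO on day 4, against 3.39 TPM on day 3. Eomes, another streak gene, stood at 9.24 TPM with C2 ceramide and 84.7 TPM with DMSO on day 4, against 25.2 TPM on day 3. Of 17 streak genes in use, 8 lay above 2 relative to day 3 with C2 ceramide and 15 with DMSO. Below 0.5 lay 2 with C2 ceramide, Eomes and Mesp2, and 0 with DMSO. Of all genes in use, 5.56% and 7.07% lay above 2, and 3.18% and 3.67% below 0.5. Of 10 fibroblast markers, 5 were in use, and 3 of these lay above 2 relative to day 3 in each day 4 library, as did 5.56% of all genes in use with C2 ceramide and 7.07% with DMSO. The 10 markers summed to 50.8 TPM in C2 ceramide day 4 EBs and 73.9 TPM in DMSO day 4 EBs, against 57.5 TPM in DMSO day 3 EBs. Fbln1 alone gave 35.2 TPM of this with C2 ceramide and 67.9 TPM with DMSO, against 52.8 TPM on day 3. Within day 4, C2 ceramide over DMSO lay above 2 in 2 of the 5 in use and below 0.5 in none. Of all genes in use, 89.0% lay between these limits. Fap was at 0 in every library, and Dcn stood at 4.25 TPM with C2 ceramide and 0.071 TPM with DMSO on day 4, against 1.25 TPM on day 3. None of 12 blood and immune markers reached the count minimum, their sums lay between 5.78 and 7.78 TPM, and Ptprc was at 0.109 TPM at most. Of 23 primitive and visceral endoderm genes in use, 10 lay above 2 with C2 ceramide and 14 with DMSO. Over the 34 such genes listed, the sum was 3554 TPM with C2 ceramide and 3132 TPM with DMSO on day 4, against 2431 TPM on day 3. Apoe alone gave 2875 TPM of it with C2 ceramide and 1471 TPM with DMSO, against 1948 TPM on day 3. Within day 4, C2 ceramide over DMSO lay below 0.5 in 11 of the 23 in use and above 2 in 2. Sox17 stood at 2.26 TPM with C2 ceramide and 254 TPM with DMSO on day 4, against 0.515 TPM on day 3, and Afp was at 0.295 TPM at most. The part of such cells in the members' levels was not tested.

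By TPM, the 78 genes were lowered rather than lost, while the counts of some, given further on, changed less or did not fall. Every one of them kept at least 22 counts in every library, and the share of the day 3 level that remained ran from 18.3% to 49.7% in C2 ceramide day 4 EBs and from 17.8% to 49.5% in DMSO day 4 EBs. Set over DMSO day 3, C2 ceramide day 4 gave a median log2 ratio of −1.45 in the members and 0.05 in all genes in use. For DMSO day 4 over DMSO day 3 it was −1.43, against 0.06 for all genes in use. Only 9 of the 78 ratios fell below 0.25 with C2 ceramide and 7 with DMSO. The members' summed level was 237 TPM in C2 ceramide day 4 EBs and 248 TPM in DMSO day 4 EBs, against 630 TPM in DMSO day 3 EBs. Without Pdk1, the most abundant member, the sums were 173 TPM with C2 ceramide and 167 TPM with DMSO on day 4, against 458 TPM on day 3. In bulk RNA, fewer cells of a type and less RNA per cell cannot be told apart.

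Across the genes in use, 372 (3.18%) lay below 0.5 for C2 ceramide day 4 over DMSO day 3 and 429 (3.67%) for DMSO day 4 over DMSO day 3. Both lists hold 98 genes in common, of which 14 had a C2 ceramide over DMSO ratio above 2 within day 4 and 6 a ratio below 0.5. The 78 that remain make up 0.668% of the genes in use, 21% of the 372 and 18.2% of the 429. Both ratios are taken over the same DMSO day 3 library, and the count in common was fixed by the rule, so nothing is read from it. In the plot of both ratios for all genes in use, 274 genes were lower with C2 ceramide only and 331 with DMSO only.

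**Figure D1:**
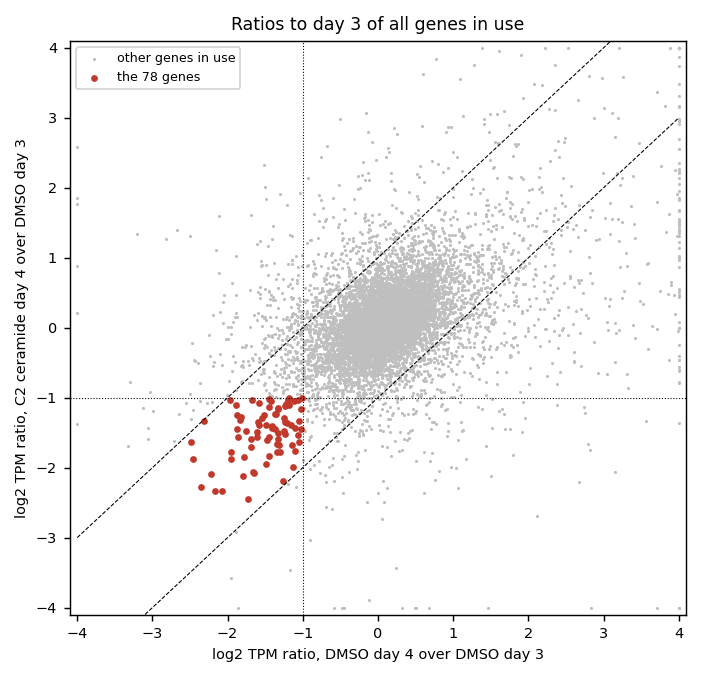
Each point is 1 gene in use, placed by its log2 TPM ratio to DMSO day 3, with DMSO day 4 on the horizontal and C2 ceramide day 4 on the vertical axis, with values beyond 4 drawn at the edge. The 78 genes (red) fill the corner that the rule cuts out below the dotted lines at −1 and between the dashed lines, where both day 4 libraries differ by 2-fold.

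Most members were modest in level. The median member stood at 1.08 TPM in C2 ceramide day 4 EBs and 1.22 TPM in DMSO day 4 EBs, against 2.99 TPM in DMSO day 3 EBs, where the median gene in use stood at 15.7 TPM. On DMSO day 3, 13 members (16.7%) reached 10 TPM, as did 60.3% of the genes in use. The number of members under 1 TPM was 33 with C2 ceramide and 31 with DMSO on day 4, against 4 on day 3. The day 3 counts had a median of 209, and 49 members had under 300 of them, so the intervals of single genes are wide. Both ratios to day 3 had intervals wholly below 0.5 in 33 members, and 25 had all 3 intervals inside the rule. Of these 25, 21 also lay below 0.5 by CPM in both comparisons, and Lbhd1, Nfatc2, Per1 and Rassf2 did not.

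**Figure D2:**
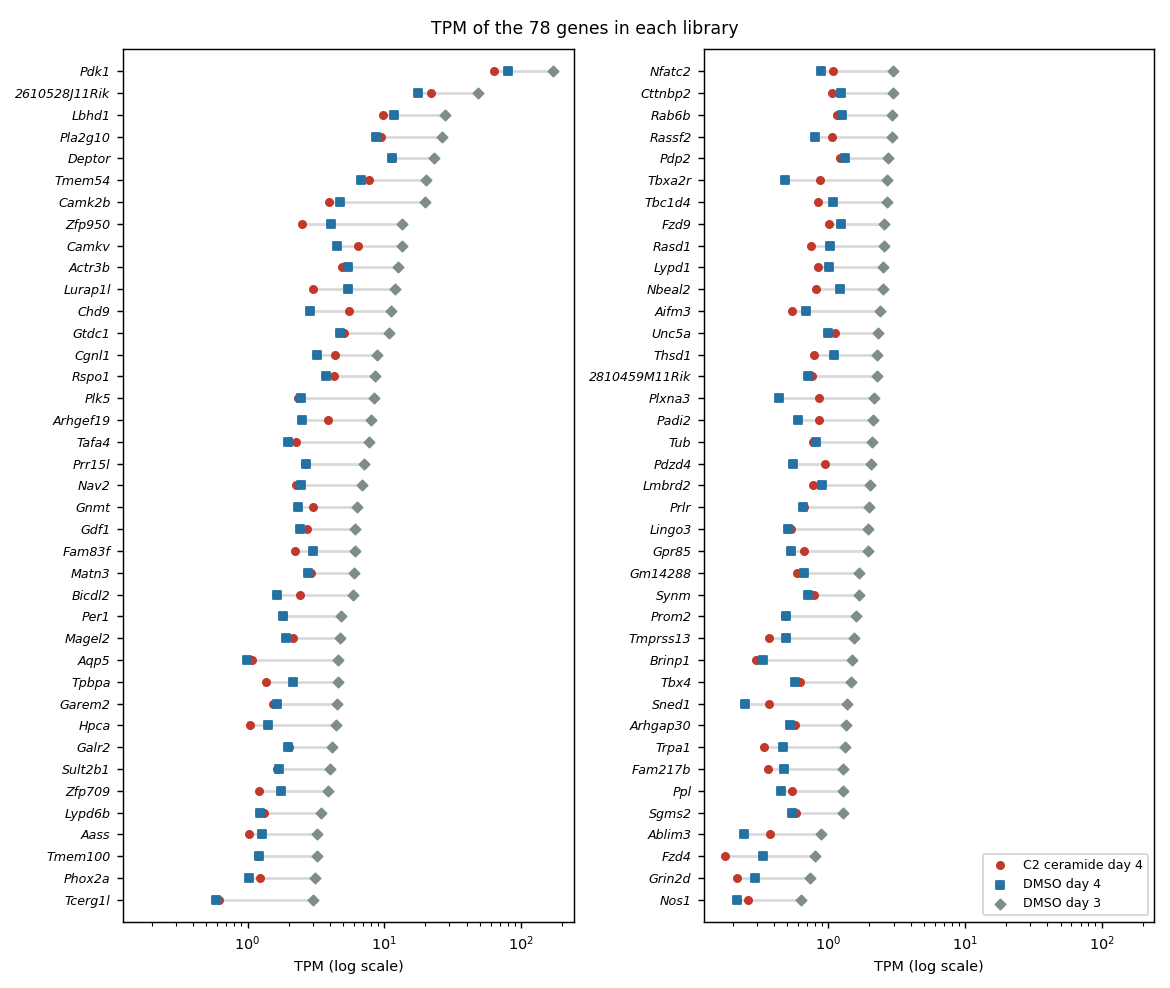
TPM of each of the 78 genes (log scale) in C2 ceramide day 4 (circles), DMSO day 4 (squares) and DMSO day 3 (diamonds) EBs, ordered by the day 3 level, 1 library each. Pdk1 leads at 172 TPM on day 3, and most genes lie between 1 and 10 TPM there. Both day 4 symbols lie to the left of the day 3 symbol in every row, less than 2-fold apart.

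Among the 10 enzymes, 2 act on pyruvate dehydrogenase, the mitochondrial complex that feeds pyruvate into the citric acid cycle. Pdk1 encodes a kinase that switches the complex off. It stood at 63.6 TPM (5411 counts) in C2 ceramide day 4 EBs and 80.2 TPM (6016 counts) in DMSO day 4 EBs, against 172 TPM (11950 counts) in DMSO day 3 EBs. Its ratio to day 3 was 0.370 (0.358 to 0.382) with C2 ceramide and 0.466 (0.452 to 0.481) with DMSO, and with C2 ceramide it stood at 0.793 (0.764 to 0.823) of the DMSO day 4 level. The 5185-base protein-coding transcript of Pdk1 carried 22.0 TPM with C2 ceramide and 22.6 TPM with DMSO on day 4, against 43.1 TPM on day 3, which gives ratios of 0.511 with C2 ceramide and 0.524 with DMSO, just outside the rule. The rest of the gene's TPM was assigned to transcripts annotated as processed.

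Pdp2, a phosphatase that reverses the action of the kinase, stood at 1.22 TPM with C2 ceramide and 1.33 TPM with DMSO on day 4, against 2.72 TPM on day 3. Its single measured transcript left 0.448 (0.377 to 0.530) with C2 ceramide and 0.491 (0.415 to 0.578) with DMSO, so both intervals reach past 0.5. None of the other genes of this system that were looked up (Pdk2, Pdk3, Pdk4, Pdp1, Pdpr, Pdha1, Pdhb, Dlat, Dld and Pdhx) met the rule. Pdk3, the next most abundant kinase, stood at 43 TPM with C2 ceramide and 42.9 TPM with DMSO on day 4, against 49.2 TPM on day 3. Pdk2 stood at 4.93 TPM with C2 ceramide and 9.61 TPM with DMSO, against 9.46 TPM on day 3, and Pdp1 at 2.19 TPM with C2 ceramide and 4.53 TPM with DMSO on day 4, against 3.35 TPM on day 3. The catalytic subunit gene Pdha1 was at 130 TPM with C2 ceramide and 107 TPM with DMSO on day 4, against 76.4 TPM on day 3. Within a list of 38 genes in use for glycolysis and the response to low oxygen, Pdk1 was the only one below 0.5 on DMSO day 4, where 3.67% of all genes in use were. With C2 ceramide 14 of them lay below 0.5 of day 3, among them Ldha, Pfkl and Bnip3, against 3.18% of all genes in use.

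The windows printed next run from 250 bases before to 49 after the start base of RefSeq genes (RefSeq, GRCm38.p6). They are shown for Pdk1 and Pdp2, as enzymes of opposite action, and for Per1, a clock gene that shares a motif with Pdp2. Capitals mark the GC box GGGCGG in Pdk1 and the E-box CACGTG, a motif of MYC and clock factors, in Pdp2 and Per1, on either strand. The windows are chr2:71872974-71873273 on the plus strand, chr8:104591222-104591521 on the plus strand and chr11:69098699-69098998 on the plus strand.
Pdk1: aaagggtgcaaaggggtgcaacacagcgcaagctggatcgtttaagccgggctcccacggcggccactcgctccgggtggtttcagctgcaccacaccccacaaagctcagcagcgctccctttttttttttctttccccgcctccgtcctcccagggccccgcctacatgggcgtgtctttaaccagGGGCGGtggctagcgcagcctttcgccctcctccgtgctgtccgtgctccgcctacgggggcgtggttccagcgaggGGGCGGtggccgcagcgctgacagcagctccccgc
Pdp2: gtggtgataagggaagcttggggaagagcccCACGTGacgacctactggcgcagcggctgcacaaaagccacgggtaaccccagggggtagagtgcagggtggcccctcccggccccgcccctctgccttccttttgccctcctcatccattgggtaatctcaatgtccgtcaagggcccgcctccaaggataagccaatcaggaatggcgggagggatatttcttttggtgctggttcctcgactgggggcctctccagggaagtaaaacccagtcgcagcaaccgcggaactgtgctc
Per1: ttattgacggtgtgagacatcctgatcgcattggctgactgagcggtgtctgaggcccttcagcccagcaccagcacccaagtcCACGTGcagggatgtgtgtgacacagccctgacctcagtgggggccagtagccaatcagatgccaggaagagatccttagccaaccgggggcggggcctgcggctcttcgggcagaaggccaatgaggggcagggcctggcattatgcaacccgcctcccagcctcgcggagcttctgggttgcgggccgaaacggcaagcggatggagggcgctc

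The GC box stood 2 times in the Pdk1 window, starting 62 bases before and 15 bases after the start. The E-box began 219 bases before the start in Pdp2 and 166 bases before it in Per1. A window was at hand for 65 members (83.3%) and 9356 genes in use (80.1%). Windows lay 24989 bases from the start of the transcript with the most counts in Nos1, 23635 in Chd9 and 10343 in Tbx4. They lay 2219 bases away in Arhgef19 and 1488 in Gpr85, and all were kept in the shares. The E-box was found in 8 member windows (12.3%), in those of Aqp5, Fzd9, Garem2, Lingo3, Pdp2, Per1, Synm and Tafa4, and in 10.7% of all windows. The GC box was found in 69.2% of member windows and 69.4% of all. These matches describe letters only, and binding was not measured.

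Pla2g10, a secreted phospholipase that cuts fatty acids from membrane phospholipids, stood at 9.49 TPM with C2 ceramide and 8.69 TPM with DMSO on day 4, against 26.6 TPM on day 3. Its ratio to day 3 was 0.357 (0.311 to 0.408) with C2 ceramide and 0.327 (0.283 to 0.375) with DMSO. Aass, which begins the breakdown of lysine, had 1.02 TPM with C2 ceramide and 1.27 TPM with DMSO on day 4, against 3.22 TPM on day 3. Aifm3, a relative of apoptosis-inducing factor, had 0.546 TPM with C2 ceramide and 0.687 TPM with DMSO on day 4, against 2.38 TPM on day 3. All intervals of these 3 genes lay inside the rule. Gtdc1, a glycosyltransferase-like gene, stood at 5.06 TPM with C2 ceramide and 4.76 TPM with DMSO on day 4, against 10.8 TPM on day 3, but lay above 0.5 by counts. Gnmt, which methylates glycine, and Sult2b1, which sulfates cholesterol, had wider intervals that reached past 0.5.

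Sgms2 encodes a sphingomyelin synthase, which uses ceramide as a substrate. It was the only member in a list of 31 sphingolipid genes in use, while 0.668% of all genes in use were members. It stood at 0.583 TPM with C2 ceramide and 0.540 TPM with DMSO on day 4, against 1.27 TPM on day 3. Its counts were 96 with C2 ceramide and 88 with DMSO on day 4, against 103 on day 3. The main transcript stood at 0.583 TPM with C2 ceramide and 0.540 TPM with DMSO on day 4, against 0.632 TPM on day 3. The remaining 0.639 TPM of day 3 came from 2 counts placed on a 364-base transcript, so the place of Sgms2 among the members rests on those 2 counts.

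The 10 signalling genes include the lowest DMSO day 4 ratio among members that reached 10 TPM on day 3. Camk2b, the beta subunit of the calcium and calmodulin-dependent kinase II, stood at 3.96 TPM (372 counts) in C2 ceramide day 4 EBs and 4.71 TPM (425 counts) in DMSO day 4 EBs, against 19.9 TPM (1666 counts) in DMSO day 3 EBs. The ratio to day 3 was 0.199 (0.177 to 0.222) with C2 ceramide and 0.236 (0.212 to 0.263) with DMSO. The other subunits of the kinase did not meet the rule. Camk2d stood at 8.37 TPM with C2 ceramide and 6.99 TPM with DMSO on day 4, against 5.16 TPM on day 3, Camk2g at 1.55 TPM with C2 ceramide and 1.26 TPM with DMSO on day 4, against 1.42 TPM on day 3, and Camk2a was below 0.4 TPM in every library.

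Camkv, a kinase-like protein that also binds calmodulin, stood at 6.39 TPM with C2 ceramide and 4.49 TPM with DMSO on day 4, against 13.5 TPM on day 3. It was 1.42 (1.26 to 1.61) times as high with C2 ceramide as with DMSO. Its 3277-base protein-coding transcript stood at 5.52 TPM with C2 ceramide and 2.73 TPM with DMSO on day 4, against 7.95 TPM on day 3. Its ratio to day 3 was 0.694 with C2 ceramide and 0.343 with DMSO. C2 ceramide over DMSO was 2.02, so this transcript alone lay outside the rule. A retained-intron transcript stood at 0.869 TPM with C2 ceramide and 1.76 TPM with DMSO on day 4, against 5.30 TPM on day 3. Hpca, a neuronal calcium sensor, had 1.04 TPM with C2 ceramide and 1.41 TPM with DMSO on day 4, against 4.41 TPM on day 3. Nos1, which makes nitric oxide when calcium rises, had 0.257 TPM with C2 ceramide and 0.216 TPM with DMSO on day 4, against 0.629 TPM on day 3. Plk5, a polo-like kinase, had 2.34 TPM with C2 ceramide and 2.45 TPM with DMSO on day 4, against 8.42 TPM on day 3, and all its intervals lay inside the rule.

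Deptor, which binds and inhibits the growth kinase mTOR, stood at 11.5 TPM with C2 ceramide and 11.4 TPM with DMSO on day 4, against 23.1 TPM on day 3. It lay at the edge of the rule with ratios of 0.497 (0.458 to 0.539) for C2 ceramide and 0.495 (0.455 to 0.538) for DMSO, and the day 4 libraries were level at 1.0 (0.913 to 1.1). By CPM, which are counts divided by the library's total, its ratios were 0.526 for C2 ceramide and 0.481 for DMSO.

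The largest group was that of ligands, receptors, channels and matrix proteins, with 21 members. Of these, 20 also lay below 0.5 by CPM in both comparisons, Thsd1 being the exception. So did 59 of all 78 members (75.6%) and 0.805% of the genes in use, and the groups were drawn after the values were seen. Tafa4, a secreted chemokine-like protein, stood at 2.25 TPM with C2 ceramide and 1.99 TPM with DMSO on day 4, against 7.75 TPM on day 3. Aqp5, a water channel of glands, stood at 1.08 TPM with C2 ceramide and 0.991 TPM with DMSO on day 4, against 4.61 TPM on day 3. Matn3, a matrix protein of cartilage, stood at 2.89 TPM with C2 ceramide and 2.78 TPM with DMSO on day 4, against 6.01 TPM on day 3. Brinp1, which is known from neurons, stood at 0.297 TPM with C2 ceramide and 0.333 TPM with DMSO on day 4, against 1.50 TPM on day 3, and its ratios of 0.198 (0.127 to 0.30) for C2 ceramide and 0.222 (0.144 to 0.334) for DMSO were among the lowest of all members.

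Tbxa2r, the thromboxane receptor, had the lowest ratio on DMSO day 4. It stood at 0.867 TPM (40 counts) with C2 ceramide and 0.479 TPM (22 counts) with DMSO, against 2.69 TPM (120 counts) on day 3, and the DMSO ratio was 0.178 (0.108 to 0.283). Plxna3, a receptor for semaphorins, was 1.97 (1.53 to 2.55) times as high with C2 ceramide as with DMSO on day 4, the highest value among the members. Prlr, the prolactin receptor, and Galr2, a galanin receptor, were level between the day 4 libraries at 1.03 (0.730 to 1.45) and 1.02 (0.768 to 1.35). For Prlr, 58.8% of the day 3 counts lay on a transcript annotated as retained intron. Protein-coding transcripts of Prlr stood at 0.097 TPM with C2 ceramide and 0.278 TPM with DMSO on day 4, against 0.288 TPM on day 3.

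Rspo1, Fzd9 and Fzd4 belong to the Wnt pathway, whose signals help to form the primitive streak. Rspo1, a secreted amplifier of Wnt signalling, stood at 4.26 TPM with C2 ceramide and 3.76 TPM with DMSO on day 4, against 8.57 TPM on day 3. Fzd9, a Wnt receptor, stood at 1.02 TPM with C2 ceramide and 1.25 TPM with DMSO on day 4, against 2.57 TPM on day 3. Fzd4, another, was the member with the lowest C2 ceramide over DMSO ratio, 0.526 (0.336 to 0.809), at 0.174 TPM with C2 ceramide and 0.331 TPM with DMSO on day 4, against 0.796 TPM on day 3. Among 36 Wnt ligands, receptors and targets in use, these 3 were the only ones below 0.5 on DMSO day 4, while 22 lay above 2, where 3.67% and 7.07% of all genes in use were. With C2 ceramide 7 lay below 0.5 of day 3 and 10 above 2, against 3.18% and 5.56% of all genes in use, and the 7 also hold Lgr5, Wnt5a, Wnt5b and Wnt8a.

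Gdf1, a ligand of the TGF-beta family that acts with Nodal, stood at 2.72 TPM with C2 ceramide and 2.43 TPM with DMSO on day 4, against 6.10 TPM on day 3. Its gene lies within the Cers1 transcription unit, a ceramide synthase gene on the same strand that stood at 7.78 TPM with C2 ceramide and 6.22 TPM with DMSO on day 4, against 6.08 TPM on day 3. The counts of both were estimated from shared sequence and are uncertain. Nodal itself stood at 34.4 TPM with C2 ceramide and 45.3 TPM with DMSO on day 4, against 53 TPM on day 3. Unc5a, a netrin receptor, was the only member among 39 axon guidance genes in use, while 0.668% of all genes in use were members.

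Epithelial and junction genes formed a group of 5. Cgnl1, which encodes a protein of tight and adherens junctions, stood at 4.34 TPM with C2 ceramide and 3.23 TPM with DMSO on day 4, against 8.80 TPM on day 3, and was 1.35 (1.20 to 1.50) times as high with C2 ceramide as with DMSO. Its relative Cgn was at 13.7 TPM with C2 ceramide and 9.33 TPM with DMSO on day 4, against 11.7 TPM on day 3. Prom2, a protein of membrane protrusions, stood at 0.485 TPM with C2 ceramide and 0.490 TPM with DMSO on day 4, against 1.58 TPM on day 3. Tmprss13, a membrane serine protease, stood at 0.367 TPM with C2 ceramide and 0.487 TPM with DMSO on day 4, against 1.54 TPM on day 3, and Ppl, a plakin of epithelial cell junctions, at 0.540 TPM with C2 ceramide and 0.447 TPM with DMSO on day 4, against 1.28 TPM on day 3. Members made up 0.668% of all genes in use, and none belonged to a list of 32 junction and keratin genes in use.

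Among 11 genes of the cytoskeleton, trafficking and small GTPases, Actr3b, a form of an Arp2/3 subunit that nucleates branched actin, stood at 4.90 TPM with C2 ceramide and 5.44 TPM with DMSO on day 4, against 12.6 TPM on day 3. Nav2, a microtubule-binding navigator protein, stood at 2.25 TPM with C2 ceramide and 2.45 TPM with DMSO on day 4, against 6.83 TPM on day 3, with all intervals inside the rule. Bicdl2, an adaptor of dynein transport that overlaps Thoc6 on the opposite strand, stood at 2.41 TPM with C2 ceramide and 1.65 TPM with DMSO on day 4, against 5.86 TPM on day 3. Lurap1l, another adaptor protein, stood at 3.02 TPM (230 counts) with C2 ceramide and 5.47 TPM (416 counts) with DMSO, against 12 TPM (893 counts) on day 3. Its C2 ceramide over DMSO ratio of 0.551 (0.467 to 0.649) was the lowest among members at 10 TPM or more.

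In the group of 10 nuclear regulators, Per1, a repressor in the circadian clock, stood at 1.82 TPM with C2 ceramide and 1.80 TPM with DMSO on day 4, against 4.80 TPM on day 3. Per2 was at 1.16 TPM with C2 ceramide and 0.976 TPM with DMSO on day 4, against 1.09 TPM on day 3, and Per3 at 0.513 TPM with C2 ceramide and 0.564 TPM with DMSO on day 4, against 0.762 TPM on day 3. Magel2, an imprinted gene expressed from the paternal copy, stood at 2.15 TPM with C2 ceramide and 1.90 TPM with DMSO on day 4, against 4.77 TPM on day 3. Tcerg1l had 0.620 TPM (43 counts) with C2 ceramide and 0.584 TPM (25 counts) with DMSO on day 4, against 3.00 TPM (202 counts) on day 3. Its ratio was 0.207 (0.145 to 0.289) with C2 ceramide and 0.195 (0.123 to 0.296) with DMSO. Chd9, a chromatin remodelling helicase, was 1.91 (1.65 to 2.21) times as high with C2 ceramide as with DMSO, standing at 5.5 TPM with C2 ceramide and 2.87 TPM with DMSO on day 4, against 11.3 TPM on day 3.

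The group of 11 little-described genes holds 2610528J11Rik, the member with the second highest day 3 level, at 22.1 TPM with C2 ceramide and 17.7 TPM with DMSO on day 4, against 48.6 TPM on day 3. Prr15l stood at 2.64 TPM with C2 ceramide and 2.67 TPM with DMSO on day 4, against 7.12 TPM on day 3, with all intervals inside the rule, and Fam83f at 2.23 TPM with C2 ceramide and 3.00 TPM with DMSO on day 4, against 6.08 TPM on day 3. Tpbpa, a marker of the spongiotrophoblast of the placenta, stood at 1.35 TPM (43 counts) with C2 ceramide and 2.13 TPM (67 counts) with DMSO, against 4.59 TPM (122 counts) on day 3. It was the only member of 11 trophoblast genes in use, while 0.668% of all genes in use were members. Of these 11, 6 lay above 2 for C2 ceramide and 8 for DMSO. Among all genes in use, 5.56% did for C2 ceramide and 7.07% for DMSO. Prl3d1, another placental marker, was at 0 TPM in both day 4 libraries and 0.373 TPM on day 3. The part of trophoblast-like cells in the level of Tpbpa was not tested.

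Lurap1l, Sned1 and Tpbpa share the octamer ATGCAAAT, the motif bound by POU factors such as the Pou5f1 product. It was found on either strand in 3 member windows (4.62%) and in 1.35% of all windows. Here too the matches are letters only, and binding by POU factors was not measured. The windows of these 3 genes are printed with the octamer, or its reverse complement, in capitals, and are chr4:80910436-80910735 on the plus strand, chr1:93235647-93235946 on the plus strand and chr13:60941887-60942186 on the minus strand.
Lurap1l: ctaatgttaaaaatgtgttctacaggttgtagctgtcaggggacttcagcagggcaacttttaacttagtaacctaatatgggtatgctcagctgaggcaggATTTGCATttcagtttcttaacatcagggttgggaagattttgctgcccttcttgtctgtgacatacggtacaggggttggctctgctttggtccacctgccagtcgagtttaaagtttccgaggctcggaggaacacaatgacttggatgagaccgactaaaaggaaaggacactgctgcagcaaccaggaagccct
Sned1: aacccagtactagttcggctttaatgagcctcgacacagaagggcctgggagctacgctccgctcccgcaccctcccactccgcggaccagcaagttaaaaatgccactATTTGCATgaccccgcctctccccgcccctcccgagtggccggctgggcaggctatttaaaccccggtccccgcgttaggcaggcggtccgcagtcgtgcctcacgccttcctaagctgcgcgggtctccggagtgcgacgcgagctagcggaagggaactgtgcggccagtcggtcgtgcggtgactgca
Tpbpa: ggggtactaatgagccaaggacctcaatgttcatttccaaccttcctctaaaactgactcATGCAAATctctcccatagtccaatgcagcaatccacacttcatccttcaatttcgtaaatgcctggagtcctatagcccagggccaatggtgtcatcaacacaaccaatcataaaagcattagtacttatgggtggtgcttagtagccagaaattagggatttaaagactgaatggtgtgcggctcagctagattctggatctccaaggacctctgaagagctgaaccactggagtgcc

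The octamer began 148 bases before the start in Lurap1l, 141 in Sned1 and 190 in Tpbpa. These 3 genes differed between the day 4 libraries: C2 ceramide over DMSO was 0.551 in Lurap1l and 0.635 (0.422 to 0.945) in Tpbpa, but 1.51 (1.07 to 2.13) in Sned1, an extracellular matrix protein. Of the other motifs searched on both strands, the AP-1 site TGANTCA was in 6 member windows (9.23%), against 4.06% of all windows. The ETS core CCGGAAG was in 4 (6.15%), against 19.8%. The shares were 4.62% against 6.38% for the TATA box TATAAA, 40% against 39.6% for CCAAT, 4.62% against 9.68% for the hypoxia core GACGTG, 1.54% against 6.45% for the STAT site TTCNNNGAA, and 13.8% against 9.76% for the ZIC site CCTGCTG. The looser octamer ATGCNAAT, which takes in the 3 octamers, was in 6.15% against 2.28%. No member window held CTTTGAT (TCF/LEF), CTTTGTT (SOX), TGACGTCA (CRE), GTCTAGAC (SMAD) or TTTCGCGC (E2F), which were in 2.34%, 3.55%, 3.46%, 0.246% and 0.737% of all windows. Member windows had a median of 17 CpG dinucleotides, against 22 in all windows, at a median GC content of 63.3%, against 62.0%.

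By position, Tmem54 and Hpca were the only members with no gene in use between them. On chromosome 4, Tmem54, which encodes a membrane protein, spans 129105548 to 129111626 on the plus strand, Hpca spans 129111570 to 129122036 on the minus strand, and their ends overlap by 57 bases. Tmem54 stood at 7.69 TPM with C2 ceramide and 6.76 TPM with DMSO on day 4, against 20.2 TPM on day 3. Since the library kit does not mark strand, reads from the overlap cannot be told apart. In all, 18 members overlap another gene with 10 or more counts, 16 of them a gene on the opposite strand. The members lie on every autosome and on chromosome X, with 9 on chromosome 7, where 7.70% of the genes in use lie.

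By annotation, 24 members (30.8%) carried the Gene Ontology term plasma membrane, against 17.0% of the genes in use and 21.2% of those under 10 TPM on DMSO day 3. The term for G protein-coupled receptor signalling was carried by 5 members (6.41%), Fzd4, Fzd9, Galr2, Gpr85 and Tbxa2r, against 1.09% and 1.77%. Synapse was carried by 7 members (8.97%), against 4.03% and 4.94%. Integral component of membrane was carried by 20 members (25.6%), against 21.6% and 26.2%. No member carried cell adhesion, chemical synaptic transmission or synapse assembly, which 1.54%, 0.462% and 0.24% of the genes in use did. The term nucleus was carried by 15 members (19.2%), against 37.8% and 30.5%. Mitochondrion was carried by 5 members (6.41%), against 12.2% and 6.68%, so the share among weakly expressed genes was alike. These shares are descriptions of only some of the terms looked up, and 70 members (89.7%) had any cellular component term, against 95.5% of the genes in use.

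**Figure D3:**
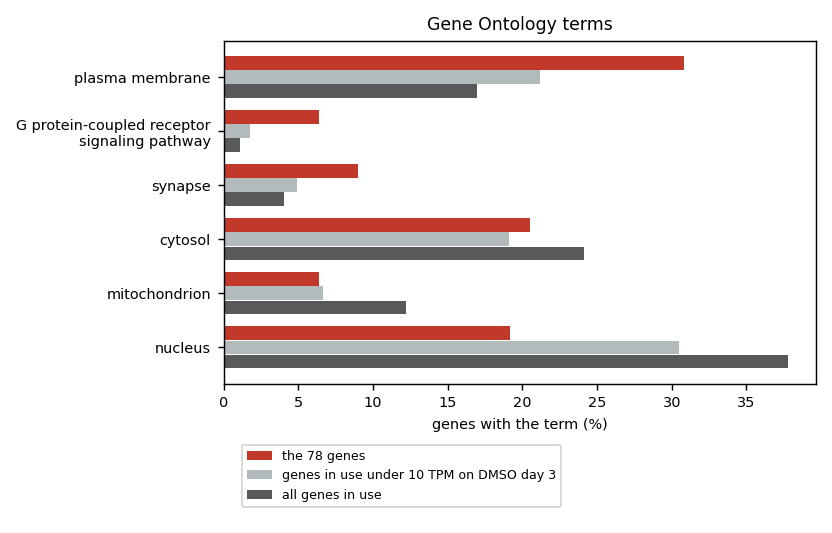
Share of genes (%) that carry each Gene Ontology term among the 78 genes (red), the genes in use under 10 TPM on DMSO day 3 (light grey) and all genes in use (dark grey). Plasma membrane reached 30.8% of the 78 genes against 17.0% of all genes in use, and nucleus 19.2% against 37.8%.

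With C2 ceramide set against DMSO on day 4, the members centred on 1, as the rule allowed. The median log2 ratio was 0.02, against −0.02 for all genes in use, and 37 members lay below 1 and 41 at or above it. Of all genes in use, 89.0% lay within the 0.5 to 2 that the rule asked for. The counting interval held 1 in 55 members and left it out in 23. The 23 include Pdk1, Camk2b, Fzd4 and Lurap1l on the lower side, and Camkv, Cgnl1, Chd9 and Plxna3 on the higher side.

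**Figure D4:**
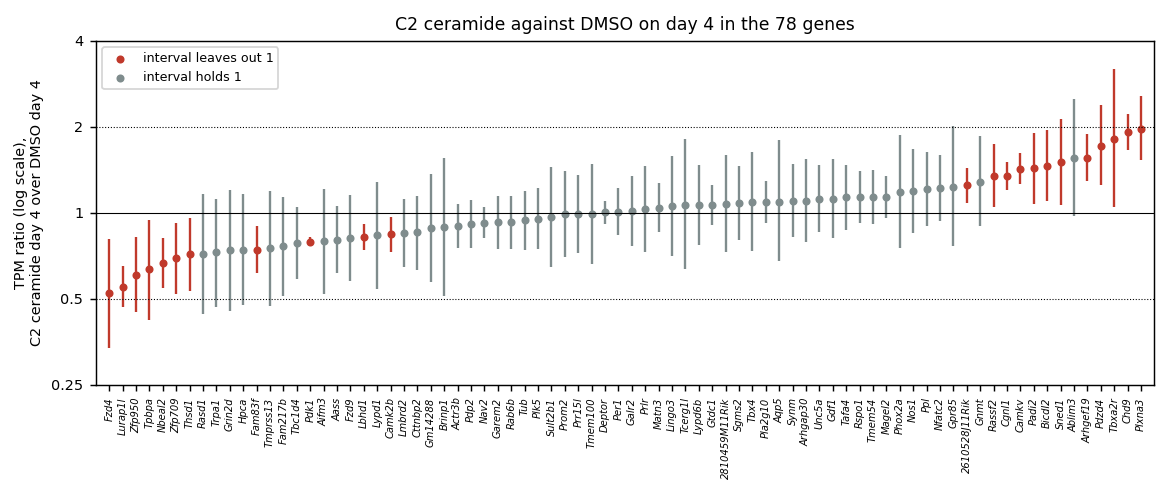
C2 ceramide over DMSO on day 4, as a TPM ratio (log scale), in each of the 78 genes, with the exact 95% counting interval as a vertical line, 1 library each. Ratios run from 0.526 in Fzd4 to 1.97 in Plxna3 between the dotted limits of the rule, and 23 intervals (red) leave out 1.

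The deposited counts did not always follow the TPM. By CPM, 59 members (75.6%) lay below 0.5 in both comparisons with day 3, as did 94 (0.805%) of the genes in use. A further 10 members lay below 0.5 in only 1 comparison, and 9 in neither. Lbhd1 had 771 counts with C2 ceramide and 642 with DMSO on day 4, against 596 on day 3, although it stood at 9.74 TPM with C2 ceramide and 11.9 TPM with DMSO on day 4, against 27.9 TPM on day 3. Its 3164-base coding transcript stood at 8.56 TPM with C2 ceramide and 7.07 TPM with DMSO on day 4, against 5.98 TPM on day 3, and a 387-base processed transcript at 1.18 TPM with C2 ceramide and 4.78 TPM with DMSO on day 4, against 21.9 TPM on day 3. Cttnbp2, which encodes a cortactin-binding protein, had 76 counts with C2 ceramide and 120 with DMSO on day 4, against 67 on day 3. A 328-base transcript with 6.19 counts carried 82.9% of its day 3 TPM.

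The other members that did not lie below 0.5 by CPM in both were Deptor, Zfp950, Chd9, Gtdc1, Arhgef19, Per1, Tpbpa, Zfp709, Nfatc2, Rab6b, Rassf2, Nbeal2, Thsd1, Padi2, Lmbrd2, Synm and Sgms2. Zfp950, a zinc finger gene, had the lowest C2 ceramide ratio by TPM, at 2.48 TPM with C2 ceramide and 4.09 TPM with DMSO on day 4, against 13.6 TPM on day 3, while its counts were 104 with C2 ceramide and 81 with DMSO, against 129 on day 3. Transcripts under 600 bases, with 29 counts, carried 84.1% of its day 3 TPM. Nfatc2, a calcium-regulated transcription factor, had 187 counts with C2 ceramide and 85 with DMSO, against 208 on day 3. Taking alone the transcript with the most counts summed over the 3 libraries, 53 members lay below 0.5 in both comparisons, as did 1.1% of the genes in use. Of the members, 20 (25.6%) had a single measured transcript, against 12.2% of the genes in use. For 28 members, both TPM intervals and both CPM ratios to day 3 lay below 0.5.

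**Figure D5:**
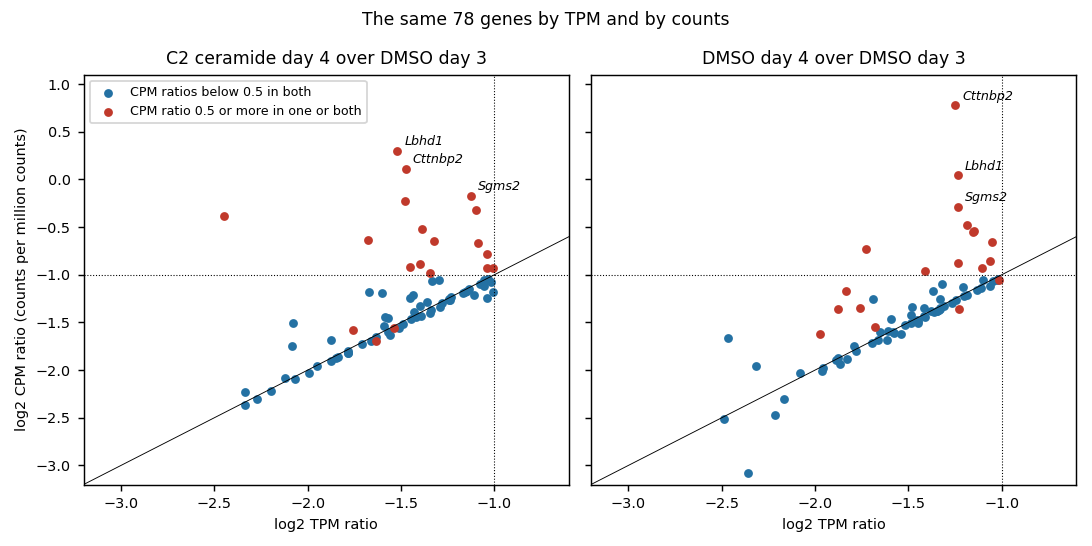
Log2 CPM ratio against log2 TPM ratio of the 78 genes, for C2 ceramide day 4 over DMSO day 3 (left) and DMSO day 4 over DMSO day 3 (right), with the line of equal values. The 59 genes in blue lie below −1 by both measures, and Lbhd1, Cttnbp2 and Sgms2 lie far above the line.

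At the limits of the rule, Deptor (0.495), Fam83f (0.493) and Pdp2 (0.491) were the last inside for DMSO day 4 over day 3, and Alox5 (0.502), Pla2g4a (0.504) and Asap3 (0.507) the first outside. For C2 ceramide day 4 over day 3, Rspo1 (0.497) and Cgnl1 (0.493) lay inside and Arl5c (0.5003), Cacng6 (0.505) and Carmil3 (0.507) outside. Between the day 4 libraries, Plxna3 (1.97) lay inside and Myb (2.13) and Enpp2 (2.25) outside at the upper limit. At the lower limit Fzd4 (0.526) lay inside and Snai3 (0.488) outside.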

How the data were processed

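RNA of 3 libraries, 1 per condition, was analysed. Per the study's methods, the SMART-Seq v4 and Nextera XT kits gave the libraries, and reads were processed with DRAGEN against GRCm38 with a GENCODE annotation. The authors deposited gene and transcript tables with TPM and with estimated counts that need not be whole and are not normalized. Reads were not used here.

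A TPM of 0 was set to 0.001. Intervals are exact conditional (Clopper-Pearson) 95% intervals for counts rounded and divided by the library's total, moved to centre on the TPM ratio. CPM are counts scaled by the library's total. Tools were Python 3.11.15, pandas 2.3.3, NumPy 2.4.6, SciPy 1.17.1 and Matplotlib 3.10.9. Scaling factors came from edgeR 4.0.16 (TMM) and DESeq2 1.42.0 in R 4.3.3, on counts rounded to whole numbers. The steps were tested on simulated data.

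The members and gene lists were chosen with earlier results of these data known. Named genes are the 25 members highest on day 3, the steepest at 10 TPM or more on day 3 (up to 15 were allowed, and 13 members reached that level), members of the gene lists, the 5 highest and 5 lowest day 4 ratios at 10 TPM or more, genes at the limits, and neighbours. Other members, and the role groups, were named after their values were seen. Gene coordinates are from the gene table, and promoter windows from RefSeq. Alternatives were other pseudocounts, count filters, scalings, thresholds and gene types.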

Additional observations from a re-analysis of the deposited data

How the results depend on the processing

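With 1 library per condition, no library could be left out. No paired analysis was possible because each condition had 1 library. The number of genes meeting the rule stayed within 1.5 times of 78 under 7 of the 13 alternatives (67 to 86 genes), which include CPM (75), TMM (77) and DESeq2 (76) scaling. Under each of these 3 scalings, 59 of the 78 were shared. With 1 TPM added the number was 23, with at least 10 counts 285, without a filter 613, with at least 1000 counts 6, with 1.5-fold thresholds 242 and with 4-fold decreases 4. For C2 ceramide day 4 over DMSO day 3, the median log2 ratio was then −1.79 with at least 10 counts, −4.32 without a filter, −1.26 with at least 1000 counts, −0.91 with 1.5-fold thresholds and −2.30 with 4-fold decreases. For DMSO day 4 over DMSO day 3 it was −1.79 with at least 10 counts, −4.32 without a filter, −0.98 with 1.5-fold thresholds and −2.19 with 4-fold decreases. The number of members with all intervals inside the rule, 25, became 3 with at least 1000 counts, 72 with 1.5-fold thresholds, 0 with 4-fold decreases and 15 with the day 4 libraries within 1.5-fold. The rule was widened or narrowed by these settings, which changes which genes can enter. Chosen after seeing the data, TPM and CPM ratios both below 0.5 left 59 genes, and leaving out members that overlap another gene left 60. Using the TPM of protein-coding transcripts gave 86 genes, 65 of them shared, without Pdk1.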
